A study of Mus musculus with 13 samples.

Results

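The transcripts described here are those of 31 genes that make, sense, move, export or turn over cholesterol in the mouse hippocampus. They were chosen by gene symbol from the 45777 genes of the deposited table, and all 31 were found. They were divided by role into 19 synthesis enzymes, 3 genes of sterol sensing and transport, and 9 export and turnover genes. The name of the group includes uptake, but no lipoprotein receptor was among the 31, and receptors were therefore described from a separate list.

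RNA-Seq had been performed on hippocampi from 13 mice, 3 days after pilocarpine or saline. Pilocarpine, a muscarinic agonist, was given at 260 mg/kg to males and 280 mg/kg to females to induce status epilepticus (SE), a continuous generalized convulsive seizure, and sham mice received saline. The 4 groups were SE-cKO (Nestin-Cre::Lin28aloxP/loxP, pilocarpine, n = 3), SE-WT (Nestin-Cre::Lin28a+/+, pilocarpine, n = 3), sham-cKO (Nestin-Cre::Lin28aloxP/loxP, saline, n = 4) and sham-WT (Nestin-Cre::Lin28a+/+, saline, n = 3). The mice were 6 weeks old at injection, and WT mice carried Nestin-Cre as well. Nestin-Cre acts in neural progenitors and in the neurons and glia that descend from them. Pilocarpine was preceded by scopolamine methyl nitrate and terbutaline, seizures were stopped with diazepam, and only mice that developed SE were used. The labels do not give the sex of a library. By the levels of Xist, which females express, and of the Y-linked Ddx3y, 2 of 3 SE-cKO, 1 of 3 SE-WT, 1 of 4 sham-cKO and 2 of 3 sham-WT libraries came from females, so sex and with it the dose were not balanced between the groups.

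Neurons and glia of the adult brain make their own cholesterol, because plasma lipoproteins do not cross the blood-brain barrier. Synthesis starts from acetyl-CoA through the mevalonate pathway to squalene and lanosterol and ends with a series of sterol modifications. SREBP2, encoded by Srebf2, switches these genes on when sterol is low, and INSIG1 holds SREBP2 in the endoplasmic reticulum when sterol is high. Surplus sterol is exported by ABCA1 and ABCG1 under the liver X receptors (Nr1h2, Nr1h3), esterified by SOAT1, or oxidized to 24S-hydroxycholesterol by CYP46A1, a neuronal enzyme that clears cholesterol from the brain, and to 25-hydroxycholesterol by CH25H, an enzyme of activated macrophages and microglia.

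Promoters from 250 bases before to 50 bases after the annotated start were available for 25 of the 31 members in the RefSeq table of GRCm38.p6. Abcg1, Fdft1, Fdps, Npc1, Sqle and Stard4 were not among them. Both strands were searched for TCACNCCAC, a sterol regulatory element to which SREBP2 binds, for CCAAT, the site of NF-Y, which acts with SREBP2, and for the liver X receptor element, a direct repeat of AGGTCA with a spacer of 4 bases. The first was found in 1 of 25 members, Hmgcs1, against 1.44% of 27025 genes with a promoter. CCAAT was found in 15 of 16 synthesis enzymes, in both sensing genes that had a promoter, and in 3 of 7 export and turnover genes, against 41.1% of all genes. The liver X receptor repeat was in no member and in 0.0148% of all genes. These matches describe the letters in this window only. The promoters below are printed 5′ to 3′ on the gene's own strand, with matches to any of these motifs, on either strand, in capitals, because they belong to the synthesis enzyme with the highest level, the synthesis enzyme with the smallest adjusted p after SE, and the pair of export and turnover genes with the largest rises in cKO.
Hmgcs1, chr13:119690101-119690400, plus strand: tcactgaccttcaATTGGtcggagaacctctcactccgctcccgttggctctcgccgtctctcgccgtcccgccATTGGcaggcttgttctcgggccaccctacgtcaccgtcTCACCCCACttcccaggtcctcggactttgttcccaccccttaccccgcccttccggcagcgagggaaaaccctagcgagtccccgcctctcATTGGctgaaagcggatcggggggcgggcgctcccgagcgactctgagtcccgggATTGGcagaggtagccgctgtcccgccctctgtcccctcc
Ebp, chrX:8193463-8193762, minus strand: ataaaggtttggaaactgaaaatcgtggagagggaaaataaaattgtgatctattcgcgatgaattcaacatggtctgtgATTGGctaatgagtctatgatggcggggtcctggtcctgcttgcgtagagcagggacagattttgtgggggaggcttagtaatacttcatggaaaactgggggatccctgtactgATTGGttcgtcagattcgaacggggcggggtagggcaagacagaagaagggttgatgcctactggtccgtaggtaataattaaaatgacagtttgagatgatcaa
Ch25h, chr19:34475099-34475398, minus strand: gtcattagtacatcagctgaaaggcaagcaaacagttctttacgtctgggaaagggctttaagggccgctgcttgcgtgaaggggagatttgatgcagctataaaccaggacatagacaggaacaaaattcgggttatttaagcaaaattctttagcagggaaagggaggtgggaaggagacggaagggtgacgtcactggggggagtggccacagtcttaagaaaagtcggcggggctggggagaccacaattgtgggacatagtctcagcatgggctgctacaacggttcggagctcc
Abca1, chr4:53159846-53160145, minus strand: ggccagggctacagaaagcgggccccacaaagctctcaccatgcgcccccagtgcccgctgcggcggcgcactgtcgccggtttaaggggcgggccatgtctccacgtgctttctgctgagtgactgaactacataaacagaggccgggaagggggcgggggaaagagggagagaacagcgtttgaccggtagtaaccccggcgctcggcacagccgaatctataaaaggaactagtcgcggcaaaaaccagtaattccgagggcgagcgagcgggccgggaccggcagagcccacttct

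In the Hmgcs1 promoter the sterol regulatory element begins 137 bases before the start on the gene's strand, and 4 CCAAT matches lie on the other strand. The Ebp promoter holds 2 CCAAT matches, and the Ch25h and Abca1 promoters hold none of the 3 motifs.

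Library totals ran between 59659977 and 84354243 counts, so that a count of 3 corresponded to 0.0364 to 0.0506 CPM, the count relative to the TMM-scaled library total. Lin28a itself was counted in SE-WT replicate 3 alone, at 3 counts, and the other 12 libraries held none, so the deletion could not be checked in these data. Markers of dentate granule cells and CA pyramidal cells, the principal neurons of the hippocampus, were above 0 in every library. SE-WT replicate 2 stood apart by a summed striatal marker level of 1526 CPM, and SE-WT replicate 3 and sham-cKO replicate 2 by summed thalamic marker levels of 1008 and 1650 CPM. Elsewhere the striatal sum was 93.46 to 200.05 CPM in SE libraries and 45.2 to 83.1 CPM in sham libraries, so it was higher after SE there too. The thalamic sum was at most 217.6 CPM elsewhere. Choroid plexus markers summed to 1176 CPM in SE-cKO replicate 1, 2643 CPM in sham-cKO replicate 3 and 1432 and 4389 CPM in sham-WT replicates 2 and 3. They reached 646 CPM in SE-WT replicate 3 and 286 CPM in SE-WT replicate 2, and at most 95.1 CPM elsewhere. Only libraries above 646 CPM were counted as high in choroid plexus markers below, so both of these SE-WT libraries were kept. The share of mitochondrial rRNA was 3.92% for SE-cKO replicate 3 and 4.83% for SE-WT replicate 3, while the other libraries had 0.486% to 1.66%. The titles of SE-cKO replicate 3 and SE-WT replicate 3 also follow another style than all other titles, including every sham title. The labels do not say what the title style stands for. For SE against sham in each genotype, the called members are given with and without the libraries named here. Standard errors (s.e.) are of the log2 fold change. For edgeR they were derived as its absolute value over the square root of the F statistic, not estimated by the fit itself. Tests used edgeR's quasi-likelihood model with Benjamini-Hochberg adjustment over all genes tested, and a gene was called at an adjusted p below 0.05. All 31 members passed the low-count filter in every comparison.

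Per transcript length, in TPM as deposited, the synthesis enzymes headed the order in the 7 sham libraries. Hmgcs1, which makes HMG-CoA for the mevalonate pathway, was first at 113.7 ± 13.8 TPM (SD, n = 7), followed by Msmo1, a sterol C4-methyl oxidase, at 74.5 ± 7.94 TPM and Fdps, the farnesyl diphosphate synthase, at 49.9 ± 7.09 TPM. Insig1 (38.1 ± 4.97 TPM) and Cyp46a1 (38.0 ± 3.36 TPM) came next and did not differ beyond their spread. Abca1 stood at 12.7 ± 1.80 TPM, the 17th of 31. Nr1h3, which encodes liver X receptor alpha, was the 30th at 2.04 ± 0.331 TPM and Ch25h the last at 0.194 ± 0.102 TPM. After SE, Ch25h averaged 18.4 ± 4.90 TPM in SE-cKO and 5.48 ± 1.86 TPM in SE-WT (SD, n = 3 each).

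What SE did to these genes in each genotype was the first question. Most export and turnover genes were called in cKO, several of them in both genotypes, and most synthesis enzymes were not called in either. Ch25h, Abca1, Npc2 and Soat1 rose in SE-cKO against sham-cKO and in SE-WT against sham-WT. In SE-cKO against sham-cKO, 9 of 31 members were called: 7 higher (22.6%, against 13.8% of the 21307 genes tested) and 2 lower (6.45%, against 8.92%). In SE-WT against sham-WT, 4 members were called, all higher (12.9%, against 4.57% of the 20803 genes tested), and 0 were called lower, against 0.832% of genes. By role, the cKO calls fell on 6 of 9 export and turnover genes, 2 of 19 synthesis enzymes and 1 of 3 sensing genes, and the WT calls on 4 of 9 export and turnover genes. With the 3 libraries that held striatal or thalamic signal left out, Ch25h, Abca1, Npc2, Soat1, Nr1h3 and Ebp stayed called in cKO, while in WT, on a single SE-WT library, Ch25h, Abca1 and Npc2 stayed called, Soat1 did not and Stard4 was called higher (log2 fold change 0.92, adjusted p = 0.0358). Without the 2 libraries high in mitochondrial rRNA, 8 members were called in cKO, all but Cyp46a1, and the 4 in WT. Without the 4 libraries high in choroid plexus markers, an alternative chosen after seeing the data, Ch25h, Abca1, Npc2, Soat1 and Cyp46a1 stayed called in cKO and Tm7sf2 was called lower (log2 fold change -0.79, adjusted p = 0.0462). In WT that left a single sham-WT library, with 0 of 23086 genes called and 4 members at an unadjusted p below 0.05, and log2 fold changes of 4.27 for Ch25h, 1.86 for Abca1, 1.11 for Npc2 and 0.98 for Soat1. The median log2 fold change of the 9 export and turnover genes was 1.00 in cKO and 0.53 in WT, where the medians of all genes tested were 0.00 and 0.02. These 2 comparisons share no samples.

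**Figure D1:**
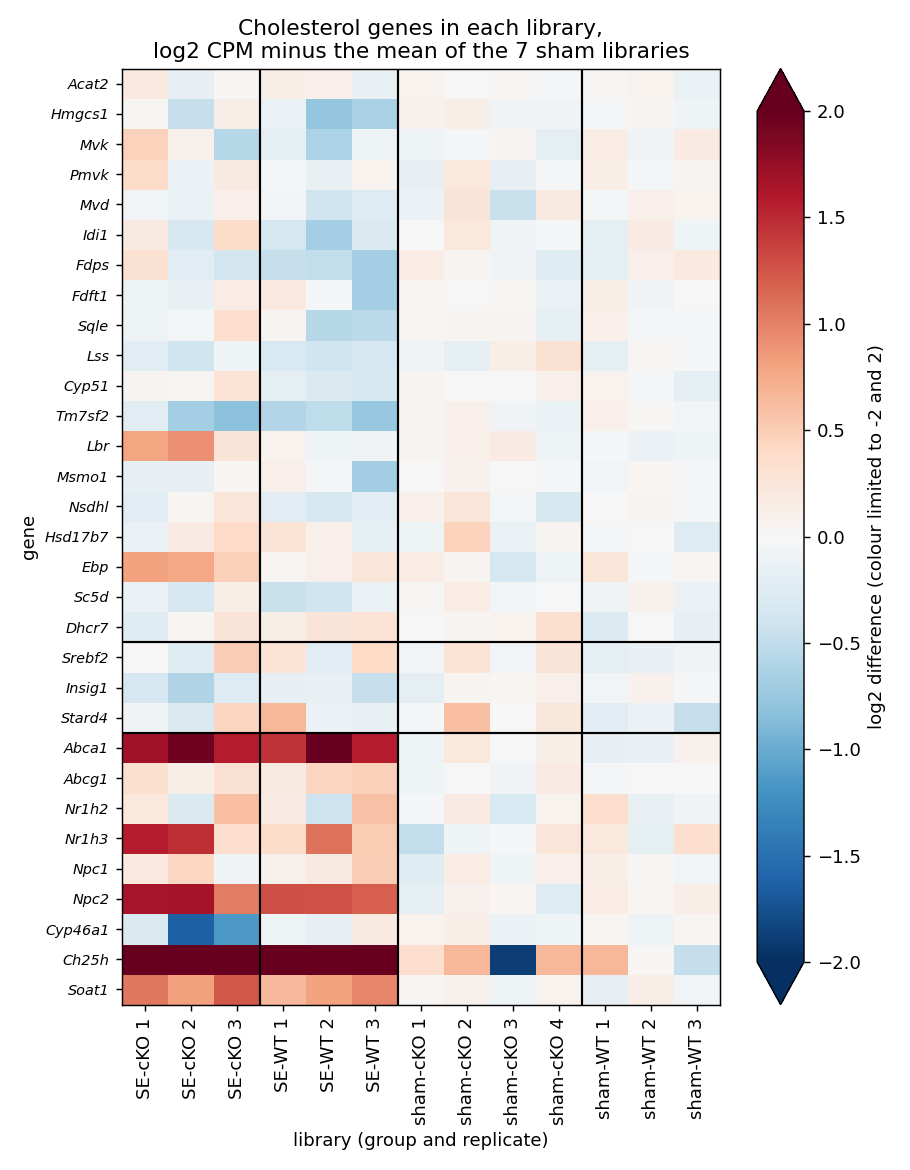
Each row is a gene and each column a library, coloured by its log2 CPM minus the mean of the 7 sham libraries, with colour limited to -2 and 2. Lines separate the 19 synthesis enzymes, 3 sensing genes and 9 export and turnover genes. Abca1, Npc2, Ch25h and Soat1 are above sham in all 6 SE libraries, and Ch25h is low in sham-cKO replicate 3, which had 2 counts.

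Ch25h (chr19:34473783-34475148, GRCm38) changed most among the members. Its counts were 1984, 1591 and 820 in SE-cKO and 19, 19, 2 and 18 in sham-cKO, or 25.3, 21.2 and 12.3 CPM against 0.231, 0.295, 0.0273 and 0.295 CPM. In the WT mice it had 501, 378 and 324 counts after SE and 24, 13 and 7 counts after saline, or 8.07, 5.20 and 3.99 CPM against 0.296, 0.179 and 0.118 CPM. No SE library came near any sham library, and sham-cKO replicate 3 lay below 3 counts. The log2 fold change was 6.51 (s.e. 0.57, adjusted p = 0.000138) in cKO and 4.80 (s.e. 0.47, adjusted p = 0.00284) in WT.

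Abca1 (chr4:53030789-53159988), the transporter that loads cellular cholesterol onto apolipoproteins, had 310.7, 375.8 and 289.5 CPM in SE-cKO and 91.2, 112.9, 97.2 and 105.4 CPM in sham-cKO. In SE-WT it had 264.3, 392.6 and 290.4 CPM, against 86.8, 87.7 and 102.7 CPM in sham-WT. Every SE library was above every sham library. Abca1 rose by 1.65 on the log2 scale in cKO (s.e. 0.13, adjusted p = 8.29e-05) and by 1.75 in WT (s.e. 0.18, adjusted p = 0.0033).

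Npc2 (chr12:84754559-84773112), which hands cholesterol released in the lysosome to NPC1, had 151.0, 153.3 and 98.1 CPM in SE-cKO and 42.5, 51.1, 49.4 and 40.4 CPM in sham-cKO. The 3 SE-WT libraries held 117.6, 117.0 and 110.3 CPM, against 53.3, 49.5 and 53.0 CPM in sham-WT. The groups did not overlap in either genotype, although SE-cKO replicate 3 was below all 3 SE-WT libraries. Its log2 fold change was 1.52 in cKO (s.e. 0.17, adjusted p = 0.00052) and 1.12 in WT (s.e. 0.11, adjusted p = 0.00271). Npc1, its membrane partner, was not called in either genotype.

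Soat1 (chr1:156428108-156474328), which esterifies cholesterol for storage in lipid droplets, was at 79.9, 67.9 and 91.0 CPM in SE-cKO and at 38.8, 40.8, 36.1 and 40.4 CPM in sham-cKO. In SE-WT its values were 60.3, 66.99 and 75.3 CPM, against 34.1, 42.1 and 36.8 CPM in sham-WT. Again each SE library exceeded each sham library. It rose by 1.00 on the log2 scale in cKO (s.e. 0.12, adjusted p = 0.00066) and by 0.82 in WT (s.e. 0.14, adjusted p = 0.0201). The WT call was lost on leaving out any single sham-WT library (adjusted p of 0.089, 0.0663 and 0.0963 without replicates 1, 2 and 3), and also without SE-WT replicates 2 and 3 together (0.0597).

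**Figure D2:**
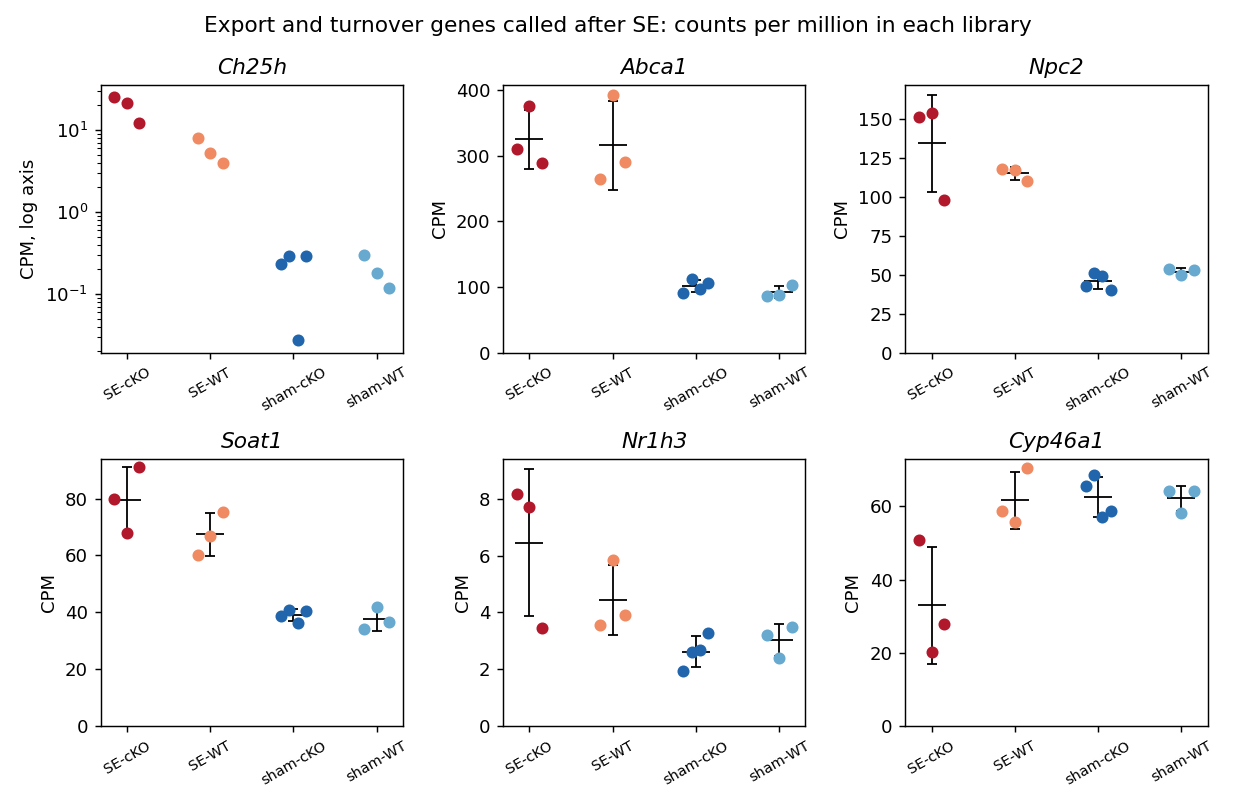
CPM in each library (points) with mean and SD (bars) for the 6 export and turnover genes called in at least 1 SE comparison. Ch25h is on a log axis without bars. The SE libraries lie above sham for Ch25h, Abca1, Npc2 and Soat1, and the 3 SE-cKO libraries lie between 20.1 and 50.7 CPM for Cyp46a1, below every sham library.

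Nr1h3 and Cyp46a1 were called in cKO alone. Nr1h3 had 8.18, 7.71 and 3.47 CPM in SE-cKO and 1.94, 2.60, 2.67 and 3.26 CPM in sham-cKO, with SE-cKO replicate 3 just above the highest sham-cKO library. It rose by 1.28 on the log2 scale (s.e. 0.33, adjusted p = 0.0243). In SE-WT it averaged 4.44 ± 1.23 CPM, against 3.02 ± 0.557 CPM in sham-WT (SD, n = 3 each), and was not called. The cKO call was lost without SE-cKO replicate 1 or 2 and without sham-cKO replicate 1 or 3, at adjusted p between 0.0534 and 0.0891.

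Cyp46a1 had 50.7, 20.1 and 28.0 CPM in SE-cKO and 65.5, 68.6, 57.1 and 58.8 CPM in sham-cKO, and SE-cKO replicate 1 was the closest to sham. Its log2 fold change was -0.95 (s.e. 0.28, adjusted p = 0.0424). The neuronal markers summed to 2930 to 4164 CPM in SE-cKO, against 4523 to 5359 CPM in sham-cKO, and their part was not tested. In WT, Cyp46a1 averaged 61.6 ± 7.72 CPM after SE and 62.3 ± 3.43 CPM after saline. The cKO call was lost without SE-cKO replicate 2 (adjusted p = 0.0967) or 3 (0.128) and without any 1 sham-cKO library (0.0601 to 0.0740). Of the 3 export and turnover genes not called in either genotype, Abcg1, which passes cholesterol to lipoprotein particles, had log2 fold changes of 0.22 in cKO (s.e. 0.11, adjusted p = 0.185) and 0.34 in WT (s.e. 0.12, adjusted p = 0.164), and did not overlap between SE-WT and sham-WT. The others were Npc1, at 95.98, 111.9 and 80 CPM in SE-cKO and 88.7, 95.03 and 118.1 CPM in SE-WT, against 70.7 to 93.4 CPM in sham-cKO and 80.6 to 91.8 CPM in sham-WT, and Nr1h2, which encodes liver X receptor beta, at 12.3 to 24.9 CPM in the SE libraries and 13.2 to 20.8 CPM in the sham libraries.

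Markers of other cells moved with these genes. The 8 microglial markers, none at 0 in any library, summed to 1382 to 2206 CPM in SE-cKO, 1210 to 1608 CPM in SE-WT, 347 to 373 CPM in sham-cKO and 365 to 388 CPM in sham-WT, and all 8 were called higher in both genotypes. The 7 markers of blood-borne myeloid cells, of which Plac8 and S100a8 were at 0 in at least 1 library, summed to 89.8 to 229 CPM in SE-cKO and 64.6 to 128 CPM in SE-WT, against 11.7 to 12.5 CPM in sham-cKO and 8.18 to 11.7 CPM in sham-WT. Of these, 6 were called higher in cKO and 1 in WT. The 7 astrocyte markers summed to 8841 to 9963 CPM in SE-cKO and 7346 to 8466 CPM in SE-WT, against 5042 to 6447 CPM in sham-cKO and 5480 to 5905 CPM in sham-WT. They did not all move alike. In cKO 3 were called higher and 1 lower, with log2 fold changes from -0.86 to 4.06. In WT 3 were called higher and 0 lower, with log2 fold changes from -0.46 to 3.02. Markers of the principal neurons were lower. Those of dentate granule cells summed to 186 to 213 CPM in SE-cKO and 92.3 to 240 CPM in SE-WT, against 286 to 392 CPM in sham-cKO and 280 to 363 CPM in sham-WT, with 4 of 7 called lower in cKO and 3 of 7 in WT. Those of CA pyramidal cells summed to 151 to 320 CPM in SE-cKO and 180 to 371 CPM in SE-WT, against 368 to 633 CPM in sham-cKO and 437.1 to 652 CPM in sham-WT, with 2 of 6 called lower in cKO and 1 of 6 in WT. Endothelial markers summed to 120 to 228 CPM in SE-cKO and 98.1 to 184 CPM in SE-WT, against 77.3 to 113 CPM in sham-cKO and 91.9 to 108 CPM in sham-WT, with 3 of 6 called higher in cKO and 0 in WT. The 7 neuronal markers, none at 0, summed to 2930 to 4164 CPM in SE-cKO and 3168 to 4619 CPM in SE-WT, against 4523 to 5359 CPM in sham-cKO and 4601 to 5334 CPM in sham-WT. Of these 7, 1 was called lower in cKO and 0 in WT. In bulk tissue, fewer cells of a type and less RNA per cell cannot be told apart, and the part of these cell types in the changes of the members was not tested.

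Of the synthesis enzymes, Ebp and Lbr were called by edgeR on the libraries of the 2 groups, and both rose in cKO. Fdps and Tm7sf2 were called lower by other fits, given below. Ebp (chrX:8185329-8193512), the sterol isomerase of the late pathway, had 22.5, 21.9 and 18 CPM in SE-cKO and 14.3, 13.4, 10.1 and 11.98 CPM in sham-cKO, without overlap. It rose by 0.72 on the log2 scale (s.e. 0.16, adjusted p = 0.0142). Since Ebp is X-linked, the Xist level was also used as a covariate, in an edgeR fit over all 4 groups. There Ebp rose by 0.80 (adjusted p = 0.000988), but that fit differed in its libraries as well as in the covariate. The call was lost without the libraries high in choroid plexus markers (adjusted p = 0.0862). In WT, Ebp averaged 14.1 ± 1.08 CPM after SE and 13.7 ± 1.45 CPM after saline. Lbr, a sterol C14-reductase that is also a receptor of the inner nuclear membrane for lamin B, had 34.5, 37.9 and 24.1 CPM in SE-cKO and 20.9, 21.6, 22.4 and 18.7 CPM in sham-cKO. It rose by 0.60 (s.e. 0.17, adjusted p = 0.0347), a call lost without SE-cKO replicate 1 or 2 and without any 1 sham-cKO library (adjusted p between 0.0584 and 0.117). In WT, Lbr averaged 19.7 ± 1.21 CPM after SE and 19 ± 0.706 CPM after saline.

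Over the 19 enzymes the median log2 fold change was -0.01 in cKO, where the median of all genes tested was 0.00, with 8 enzymes above 0 and 11 below. In WT it was -0.29, where the median of all genes was 0.02, with 14 enzymes below 0 and 5 above. Separation between SE-WT and sham-WT was common among them: 9 of 19 enzymes (47.4%) were lower in every SE-WT library than in any sham-WT library, against 11.9% of all genes tested. These were Hmgcs1; Mvk and Mvd, a kinase and a decarboxylase of the mevalonate steps; Idi1, the isopentenyl diphosphate isomerase; Fdps; Lss, which closes the ring of lanosterol; and Tm7sf2, Nsdhl and Sc5d of the late sterol steps. Dhcr7, the 7-dehydrocholesterol reductase, was the 1 enzyme higher in every SE-WT library, at 14.99, 16.5 and 16.95 CPM against 11.5, 13.8 and 12.3 CPM in sham-WT, and Insig1 was the 1 sensing gene lower in every one. Counted over all 31 members, 10 were lower without overlap (32.3%) and 7 higher (22.6%, against 16.8% of all genes).

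Lss had 27.3, 25.7 and 26.7 CPM in SE-WT and 29.9, 34.5 and 33.2 CPM in sham-WT, and Idi1 had 24.3, 19.4 and 25.6 CPM in SE-WT and 27.7, 34.8 and 29.3 CPM in sham-WT. Sqle, the squalene epoxidase, had 57.5, 37.2 and 37.97 CPM in SE-WT and 59.2, 53.95 and 54.4 CPM in sham-WT, so that replicate 1 alone lay in the sham range. Fdft1, the squalene synthase, and Msmo1 were low in SE-WT replicate 3 only, at 44.1 CPM for Fdft1 and 63.8 CPM for Msmo1.

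Hmgcs1 had 273.4, 174.6 and 189.9 CPM in SE-WT and 289.7, 311.5 and 281.3 CPM in sham-WT, with SE-WT replicate 1 near the sham range. Its log2 fold change of -0.50 (s.e. 0.18, adjusted p = 0.181) was not called. Fdps had 33.9, 33.2 and 29.2 CPM in SE-WT and 41.2, 49.7 and 53.1 CPM in sham-WT, a log2 fold change of -0.61 (s.e. 0.14, adjusted p = 0.0566). Tm7sf2, the second sterol C14-reductase, had 7.17, 7.57 and 6.35 CPM in SE-WT and 11.5, 10.9 and 10.3 CPM in sham-WT, a log2 fold change of -0.66 (s.e. 0.16, adjusted p = 0.0672). DESeq2 called Fdps (adjusted p = 0.00897) and Tm7sf2 (adjusted p = 0.00753) lower in SE-WT, where it called 10.3% of 24423 genes in either direction. So did limma-voom (adjusted p of 0.0388 for Fdps and 0.0384 for Tm7sf2) and edgeR over all 4 groups with the Xist covariate (0.0460 and 0.0275). Without that covariate, edgeR over all 4 groups called Tm7sf2 (0.0404). Without SE-WT replicates 2 and 3, which held neighbouring-tissue markers, the median of the 19 enzymes in WT was -0.11, on a single SE-WT library.

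**Figure D3:**
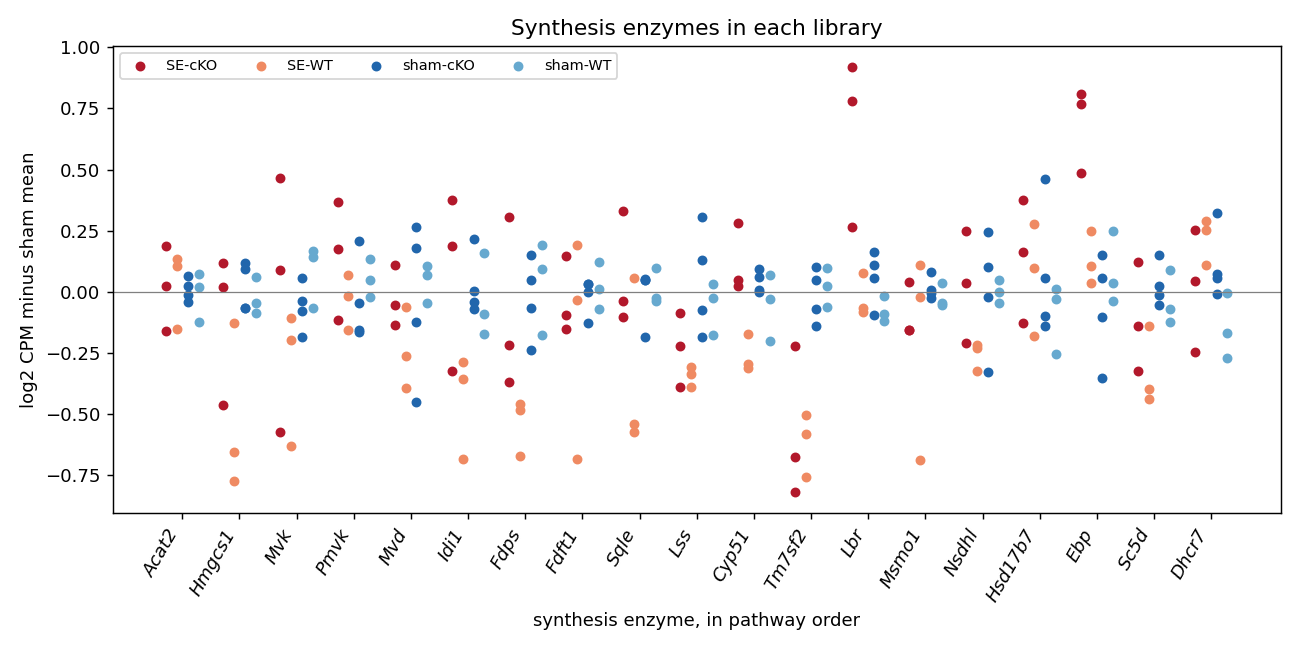
Log2 CPM minus the mean of the 7 sham libraries (y) for the 19 synthesis enzymes in pathway order (x), 1 point per library. SE-WT points sit below the sham-WT points for 9 enzymes, from Hmgcs1 to Sc5d, and SE-cKO points sit above the sham-cKO points for Lbr and Ebp.

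In cKO, 2 enzymes, Ebp and Lbr, were higher in every SE library and 1, Tm7sf2, was lower. Over all members, 7 were higher without overlap (22.6%, against 19.8% of all genes tested) and 3 lower (9.68%, against 14.4%). Tm7sf2 had 9.21, 6.71 and 6.07 CPM in SE-cKO and 11.1, 11.5, 10.2 and 9.75 CPM in sham-cKO, and its log2 fold change was -0.56 (s.e. 0.19, adjusted p = 0.0637). DESeq2, which called 26.0% of 24120 genes here, called Tm7sf2 lower (log2 fold change -0.57, adjusted p = 0.0223). So did edgeR over all 4 groups (adjusted p = 0.0294), the same fit with the Xist covariate (0.0333) and edgeR on the 2 groups without SE-cKO replicate 1 (0.0211). The difference between its effects, cKO minus WT, was 0.09 (s.e. 0.23, adjusted p = 0.917). Oligodendrocytes make cholesterol for myelin. Their 8 markers summed to 3548 to 4769 CPM in SE-cKO and 2834 to 8172 CPM in SE-WT, against 2720 to 5268 CPM in sham-cKO and 3455 to 4306 CPM in sham-WT. Of the 8, 2 were called higher in cKO, where 13.8% of all genes were, and 0 were called in WT. Median log2 fold changes were 0.16 in cKO, with 7 markers above 0, and 0.36 in WT, with 8 above 0. The part of oligodendrocytes was not tested.

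Among the sensing genes, Insig1 fell in cKO. It had 59.9, 49.6 and 63.3 CPM in SE-cKO and 66.0, 78.8, 77.6 and 81.3 CPM in sham-cKO, with SE-cKO replicate 3 close to sham-cKO replicate 1. Its log2 fold change was -0.42 (s.e. 0.12, adjusted p = 0.0405), and the call was lost without SE-cKO replicate 1 or 2 and without sham-cKO replicate 2, 3 or 4 (adjusted p between 0.0686 and 0.111). In WT it averaged 63.4 ± 7.62 CPM after SE and 75.3 ± 4.14 CPM after saline. Srebf2 and Stard4, which carries sterol between membranes, were not called in either genotype.

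**Figure D4:**
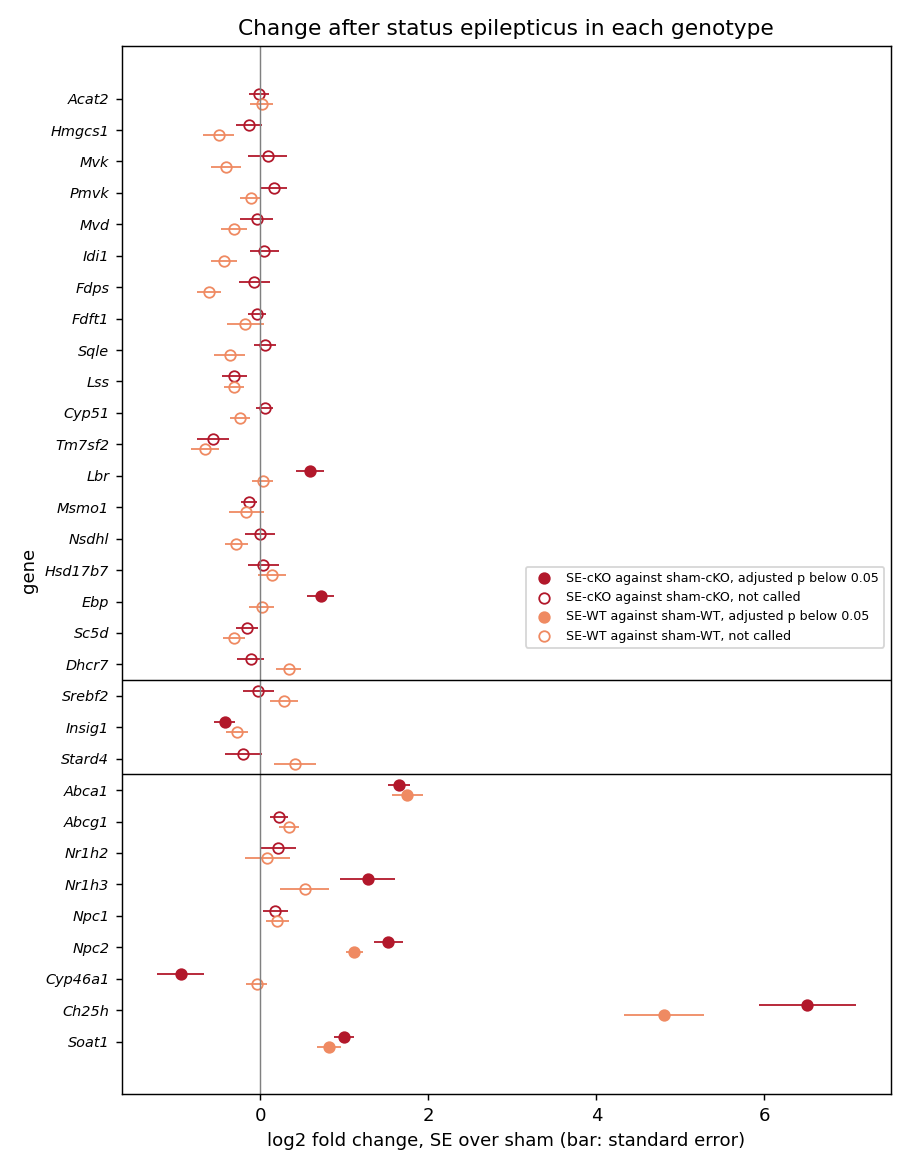
Log2 fold change of SE over sham (x, bars are standard errors) for the 31 members (y) in cKO and in WT, with filled points where the adjusted p was below 0.05. Export and turnover genes reach 6.51 for Ch25h in cKO, while the synthesis enzymes lie between -0.66 and 0.72.

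Synthesis and export were then set side by side in each library, as the mean over the genes of log2 CPM minus the sham mean. The 9 export and turnover genes stood at 1.48, 1.25 and 1.09 in SE-cKO and at 1.04, 1.10 and 1.14 in SE-WT, against -0.29 to 0.16 in the 7 sham libraries. The 19 synthesis enzymes stood at 0.08, -0.06 and 0.08 in SE-cKO and at -0.10, -0.27 and -0.29 in SE-WT, against -0.05 to 0.10 in sham libraries. The 3 SE-WT libraries were thus below all 7 sham libraries for synthesis, whereas the SE-cKO libraries lay on both sides of 0. Export minus synthesis came to 1.24 ± 0.20 in SE-cKO and 1.32 ± 0.15 in SE-WT (SD, n = 3 each), against -0.03 ± 0.17 in sham-cKO (n = 4) and 0.04 ± 0.10 in sham-WT (n = 3). Ch25h carried much of this difference: without it, export minus synthesis was 0.58 ± 0.16 in SE-cKO and 0.86 ± 0.22 in SE-WT, an alternative chosen after seeing the data. These means are descriptions, and no test was made on them.

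**Figure D5:**
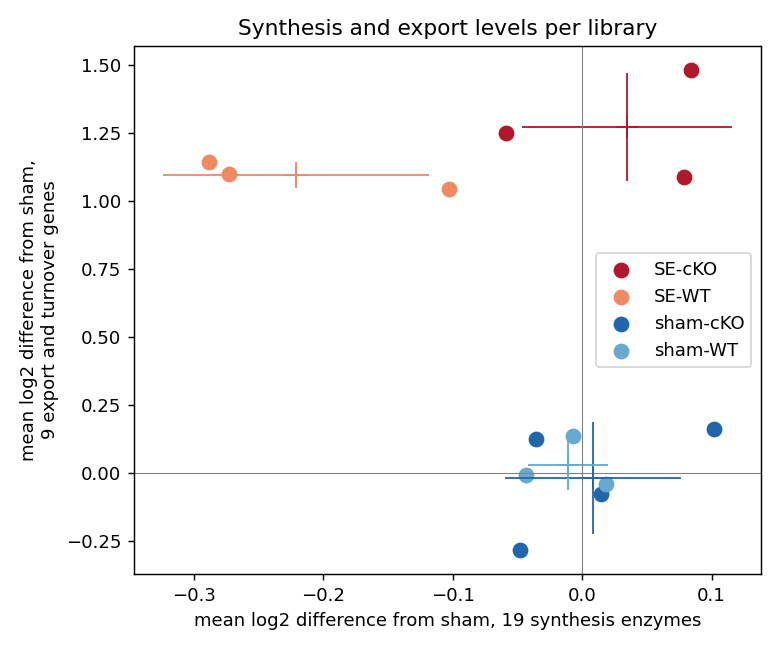
Mean log2 difference from the sham mean of 19 synthesis enzymes (x) and of 9 export and turnover genes (y), 1 point per library, with crosses for each group's mean and SD. The 6 SE libraries lie between 1.04 and 1.48 on the export axis, and the SE-WT libraries lie between -0.29 and -0.10 on the synthesis axis.

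The second question was whether the deletion of Lin28a changed these genes. In SE-cKO against SE-WT edgeR called 0 of 31 members, as it called 0% of the 21126 genes tested. At an unadjusted p below 0.05 there were 4 members (Ch25h, Lbr, Ebp and Cyp46a1), where 9.68% of genes passed. DESeq2 called 1 member, Ch25h, with a log2 fold change of 1.71 (s.e. 0.37, adjusted p = 0.000995), where it called 2.75% of 18481 genes, and limma-voom called 0. By edgeR, Ch25h had a log2 fold change of 1.73 (s.e. 0.36, adjusted p = 0.296), and its lowest SE-cKO library, at 12.3 CPM, was above its highest SE-WT library, at 8.07 CPM.

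By edgeR, the log2 fold change of SE-cKO over SE-WT was 0.67 for Lbr (s.e. 0.20, adjusted p = 0.373), 0.52 for Ebp (s.e. 0.18, adjusted p = 0.417) and -0.94 for Cyp46a1 (s.e. 0.32, adjusted p = 0.419). None of these passed this test, though Cyp46a1 was called with the Xist covariate in the fit over all 4 groups (log2 fold change -0.88, adjusted p = 0.0425). The libraries of the 2 groups did not overlap for any of the 3. Without overlap, 6 members were higher in SE-cKO (19.4%, against 9.3% of all genes tested) and 1 was lower (3.23%, against 5.68%). The 6 were Ch25h and the enzymes Fdps, Cyp51, Lbr, Nsdhl and Ebp, and the 1 was Cyp46a1. Cyp51, the lanosterol demethylase, had 85.4, 84.1 and 100.3 CPM in SE-cKO and 73.2, 67.3 and 66.5 CPM in SE-WT. Fdps had 57.6, 40.04 and 36.1 CPM in SE-cKO, above the 29.2 to 33.9 CPM of SE-WT. Nsdhl had 11.2, 13.3 and 15.4 CPM in SE-cKO and 11.15, 10.35 and 11.06 CPM in SE-WT, where the closest libraries differed by little. Median log2 fold changes were 0.18 for the synthesis enzymes and 0.02 for the export and turnover genes, where the median of all genes was 0.00, and 17 of the 19 enzymes were above 0. Related genes did not share this direction. Of the 3 sensing genes, 0 were above 0 (median -0.16). The same held for 0 of 7 other genes of sterol synthesis and SREBP processing (median -0.10) and 0 of 10 fatty acid synthesis genes (median -0.21), lists described below. Without SE-WT replicates 2 and 3 the median of the synthesis enzymes was 0.05. The summed microglial markers, at 1382 to 2206 CPM in SE-cKO and 1210 to 1608 CPM in SE-WT, and those of blood-borne myeloid cells, at 89.8 to 229 CPM in SE-cKO and 64.6 to 128 CPM in SE-WT, overlapped between these groups, and their part was not tested.

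In sham-cKO against sham-WT, 0 members were called by edgeR, DESeq2 or limma-voom, and edgeR called 0% of 20785 genes. Srebf2 and Stard4 had an unadjusted p below 0.05, as did 5.54% of genes, and were the 2 members higher in every sham-cKO library (6.45% of members, against 3.88% of genes). Stard4 had 17.8, 28.0, 18.4 and 21.54 CPM in sham-cKO and 15.7, 16.9 and 13.3 CPM in sham-WT, a log2 fold change of 0.50 (s.e. 0.17, adjusted p = 0.868). Srebf2 had a log2 fold change of 0.27 (s.e. 0.11, adjusted p = 0.868).

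The difference between the SE effects, cKO minus WT, was tested as an interaction over all 13 libraries. No member passed, while 0.159% of 22596 genes did, and 5 members had an unadjusted p below 0.05 (Ebp, Lbr, Cyp46a1, Fdps and Ch25h), where 12.5% of genes did. DESeq2 and limma-voom called 0 members. The difference was 0.70 for Ebp (s.e. 0.21, adjusted p = 0.201), 0.57 for Lbr (s.e. 0.21, adjusted p = 0.283), -0.91 for Cyp46a1 (s.e. 0.34, adjusted p = 0.298) and 1.71 for Ch25h (s.e. 0.76, adjusted p = 0.379). Without SE-cKO replicate 1, Cyp46a1 passed at -1.36 (adjusted p = 0.0436). Without the libraries high in mitochondrial rRNA, 234 of 23299 genes passed by edgeR, but no member did. There, 8 members and 4085 genes had an unadjusted p below 0.05. Leaving out the libraries high in striatal or thalamic markers, or in choroid plexus markers, left a single SE-WT or sham-WT library, so no counts are given. Effects called in cKO and not in WT are therefore not shown to differ between the genotypes.

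Other genes of cholesterol metabolism were counted from 5 further lists, beside which stand the shares of all genes called: 13.8% higher and 8.92% lower in cKO, and 4.57% higher and 0.832% lower in WT. Counts such as 2 of 10 higher and 1 of 10 lower lie near those shares. Of 7 other oxysterol and cholesteryl ester genes, 4 rose and 1 fell in cKO, and 1 rose and 1 fell in WT, with median log2 fold changes of 1.10 and 0.50. Plin2, a coat protein of lipid droplets, rose by 3.66 on the log2 scale in cKO (s.e. 0.29, adjusted p = 9.26e-05) and by 2.18 in WT (s.e. 0.33, adjusted p = 0.014). Hsd3b7 and Cyp39a1, enzymes of bile acid synthesis from oxysterols, rose by 1.61 (s.e. 0.21, adjusted p = 0.000923) and 1.53 (s.e. 0.29, adjusted p = 0.00638) in cKO. Cyp7b1, an oxysterol 7-alpha-hydroxylase, had a log2 fold change of -0.63 in WT (s.e. 0.12, adjusted p = 0.0303), and this call was lost without SE-WT replicate 1 or 2 and without any 1 sham-WT library (adjusted p between 0.0563 and 0.157). The Plin2 call in WT was lost without any 1 sham-WT library (adjusted p between 0.0593 and 0.093).

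Of 8 lipoprotein receptors and their regulators, listed for the uptake side, 3 rose in cKO and 0 were called in WT, with medians of 0.48 and 0.28. The list holds regulators as well as receptors, so these counts give no direction of uptake. In cKO, 5 of the 8 were above 0 and 3 below, and DESeq2 called 5 higher and 1 lower. Mylip, a ubiquitin ligase, rose by 0.57 (s.e. 0.14, adjusted p = 0.022) and Scarb1, the HDL receptor, by 0.65 (s.e. 0.19, adjusted p = 0.0425). The Mylip call was lost without SE-cKO replicate 1 or sham-cKO replicate 3, and that of Scarb1 without any 1 library but SE-cKO replicate 2. Of 10 lipoprotein and lipid transfer genes, 2 rose and 1 fell in cKO, and 1 rose in WT, with medians of 0.05 and 0.25. Apod, a lipocalin of glia, rose in both genotypes, by 2.29 in cKO (s.e. 0.21, adjusted p = 0.000182) and by 1.90 in WT (s.e. 0.21, adjusted p = 0.00374). Abcg4, a neuronal and glial relative of Abcg1, had a log2 fold change of -0.76 in cKO (s.e. 0.12, adjusted p = 0.00253). Apoc1 rose by 1.53 in cKO (s.e. 0.47, adjusted p = 0.0482), a call lost without SE-cKO replicate 2 or 3 and without sham-cKO replicate 1, 3 or 4. Of 7 other genes of sterol synthesis and SREBP processing, 1 fell in cKO, Ggps1, the geranylgeranyl diphosphate synthase (log2 fold change -0.57, s.e. 0.10, adjusted p = 0.00435), and 0 were called in WT, with medians of -0.13 and -0.06. Of 10 fatty acid synthesis genes under SREBP1, 0 were called in either genotype by edgeR, with 3 in cKO and 0 in WT at an unadjusted p below 0.05 and 3 and 0 by DESeq2. Its medians were -0.16 in cKO and 0.22 in WT. The medians of all genes tested were 0.00 in cKO and 0.02 in WT.

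Exons of Ch25h, Cyp51, Fdft1, Hmgcs1, Idi1, Lbr, Lss and Npc1 overlap a gene on the opposite strand in GENCODE's mm10 annotation, and those of Fdps, Lbr, Nr1h3 and Tm7sf2 overlap another gene on the same strand. The libraries mark strand, but the strand setting of the counting was not given in the sources used here, so reads from such partners may be included.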

How the data were processed

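Libraries were made with a stranded total RNA kit from whole hippocampi of 13 mice. After trimming (Trimmomatic), the authors mapped reads against mm10 (HISAT2 2.1.0), ran StringTie 2.1.3b on the genes and deposited a read count, an FPKM and a TPM value per gene and library. The deposited FPKM were not used, and the deposited TPM served only to order genes and to give the level of Ch25h after SE. The labels call the replicates biological, and no pair of libraries agreed within sampling noise.

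Counts were filtered (filterByExpr, minimum count 10, minimum total 15), TMM-scaled, and analysed by edgeR 4.0.16 (R 4.3.3; quasi-likelihood F test, robust dispersion), on the libraries of the 2 groups, with all 13 for the interaction. Adjusted p values follow Benjamini and Hochberg at 0.05. Log2 CPM used a prior count of 2. The precision of a count covers counting error only. Alternatives were RLE size factors, DESeq2 1.42.0, limma-voom 3.58.1, a replicate block, no filter, 1 fit over the 4 groups, that fit with the Xist level as a covariate, and libraries left out.

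By rule, the text gives per-library values for called members, at most 8 per role group by p, and fold changes for up to 3 called genes of each further list per SE comparison. Further members and values were picked after seeing them. The members and lists were chosen with earlier results of these data known. Positions and promoters came from RefSeq on GRCm38.p6, the assembly of mm10. Results for some genes of the further lists are not reported here.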

Additional observations from a re-analysis of the deposited data

Results flagged for a closer look

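Sqle, the squalene epoxidase, had 48.7 CPM in sham-cKO replicate 4, against 57.2 to 57.5 CPM in the other 3 sham-cKO libraries. The gap was 0.967 of the group's range, above Dixon's 95% critical value for 4 samples. Chance flags about 1 in 20 such groups, and 31 members were examined.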

How the results depend on the processing

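No called member changed direction under any alternative. The calls of Abca1, Npc2 and Ch25h held under every alternative in both genotypes except in WT without the libraries high in choroid plexus markers, where 0 members were called on a single sham-WT library, and that of Soat1 held under every alternative in cKO. In SE-cKO against sham-cKO, 9 members were called, 4 with the replicate block, and between 5 (without SE-cKO replicate 2 or sham-cKO replicate 3) and 8 with a library left out. In SE-cKO against SE-WT the count was 1 with DESeq2 (Ch25h) and 1 with the Xist covariate (Cyp46a1). The interaction gave 1 without SE-cKO replicate 1 and 0 in the other fits that kept more than 1 library in each group. Same-numbered libraries correlated between -0.0738 and 0.249 in their deviations from the group means. Some libraries, but not all, correlated best with their own number. Weak correlations over all genes cannot decide whether the numbers pair the samples, and the main fits did not pair them. The replicate block left 4 calls in WT. The median of the export and turnover genes in WT, 0.53, was between 0.31 and 0.67 with a library left out. It was 0.63 without the libraries of the other title style, the same 2 that were high in mitochondrial rRNA. Without the 3 libraries with high striatal or thalamic sums it was 0.23. Without those 3 the median of the synthesis enzymes was -0.11 in WT, 0.049 in SE-cKO against SE-WT and 0.17 for the interaction, where leaving out the choroid plexus libraries also gave 0.17. For the interaction, leaving out libraries gave medians of 0.15 to 0.37 for synthesis and -0.076 (without sham-WT replicate 1) to 0.29 for export. The export median in sham-cKO against sham-WT was -0.19 with the Xist covariate. As medians over genes, the export level was 0.8294 in SE-cKO and 0.587 in SE-WT, and export minus synthesis was 0.843 and 0.804. Without Ch25h the export level was 0.616 in SE-cKO and 0.636 in SE-WT, and export minus synthesis was 0.581 and 0.858. The causes were not tested. Of the members not called, 14 of 22 in cKO and 8 of 27 in WT changed sign under at least 1 alternative.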
